A study of Mus musculus with 10 samples.

Results

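The platelet-derived growth factor (PDGF) genes of mouse lung fibroblasts were described here as a family of 6, the ligands Pdgfa, Pdgfb, Pdgfc and Pdgfd and the receptors Pdgfra and Pdgfrb. They were taken by name, and all 6 were among the 18193 genes measured. RNA came from carcinoma-associated fibroblasts (CAF), the stromal fibroblasts of a tumour, and from normal fibroblasts, with 5 arrays in each group and both kinds of cell isolated from mouse lungs. The cells of both groups were expanded for 10 to 14 days in DMEM with 10% serum and antibiotics, then replated and grown overnight before RNA was taken. The titles number the arrays as biological replicates. The labels name neither the animals, their strain and age nor the tumour model, and p-values measure the spread between these cultures. Arrays are called here by group and replicate number. The label codes of normal cultures 1 to 3 begin with vs, and those of normal cultures 4 and 5 and of all CAF cultures begin with ls. What these prefixes stand for is not given.

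PDGF ligands are secreted dimers that make fibroblasts, smooth muscle cells and pericytes divide, migrate and lay down matrix. PDGF-AA and PDGF-CC act mainly through PDGFR-alpha, PDGF-BB through both receptors and PDGF-DD mainly through PDGFR-beta, and the bound receptors pair up and phosphorylate their own tyrosines, to which signalling proteins then dock. In the developing lung, PDGF-A made by epithelium drives the PDGFR-alpha-positive fibroblasts that form alveolar septa. In tumours, fibroblasts are mainly receivers of PDGF from tumour cells, macrophages and endothelium, and they also make ligands of their own.

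The windows before the transcription start of Pdgfa and Pdgfc, the ligands read at 9.77 or more on all arrays by their brightest probe set, are shown because Pdgfa had separate values in the groups and Pdgfc did not. They are RefSeq sequences of build GRCm38.p6, 250 bases up to the start, 5′ to 3′ on the strand of the gene. Capitals mark the core of the GC box, the site of SP1-type factors. RefSeq lists 2 starts for Pdgfa, and the one farther upstream is shown, at chr5:138994945-138995194 on the minus strand. The window of Pdgfc lies at chr3:81036166-81036415 on the plus strand.
Pdgfa: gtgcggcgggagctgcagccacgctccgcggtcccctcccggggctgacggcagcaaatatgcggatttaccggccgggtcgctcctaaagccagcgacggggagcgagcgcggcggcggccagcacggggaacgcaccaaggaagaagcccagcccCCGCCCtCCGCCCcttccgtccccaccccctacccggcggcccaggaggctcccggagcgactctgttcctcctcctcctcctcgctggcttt
Pdgfc: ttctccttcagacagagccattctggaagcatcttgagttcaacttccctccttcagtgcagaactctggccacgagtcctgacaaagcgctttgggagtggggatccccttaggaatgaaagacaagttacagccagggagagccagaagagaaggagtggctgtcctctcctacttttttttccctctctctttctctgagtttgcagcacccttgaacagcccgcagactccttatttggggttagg
The Pdgfa window was 72.4% G and C, that of Pdgfc 50.8%, and the median of all 32851 RefSeq windows was 52.4%. The core was searched as GGGCGG and, on the other strand, CCGCCC. The Pdgfa window held it at 93 and 86 bases before the start, both on the other strand and without overlap between them. The window of the other Pdgfa start, 66.4% G and C, held 1, at 60 bases before that start on the strand of the gene. Of all windows, 32.7% hold at least 1, whatever their share of G and C, and the Pdgfa window shown is richer in these than 93.6% of them. The part of these letters in the Pdgfa difference was not tested. These letters were not in the Pdgfc window. The EGR1 site GCGGGGGCG, or CGCCCCCGC on the other strand, was in neither window, and 2.57% of all windows hold it.

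Values are log2 expression made by the robust multi-array average (RMA), so a step of 1 is a doubling of signal and each value is relative to the other genes of the same array. Each gene was read by its brightest probe set, and levels are compared between cultures and not between genes. Differences are CAF minus normal with the moderated standard error of limma, and a gene passed at a limma p under 0.05 after Benjamini-Hochberg adjustment over all genes. Of the 6 PDGF genes, 0 passed, against 0.753% of all genes. At an unadjusted p under 0.05 the count was 1 (Pdgfa), against 22.3% of all genes. Differences were positive for 3 and negative for 3, with a median of 0.08, and the median over all genes was -0.04. The values of the 2 groups did not overlap for 1 of the 6, again Pdgfa and higher in CAF, against 7.16% of all genes (2.97% higher and 4.19% lower).

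**Figure D1:**
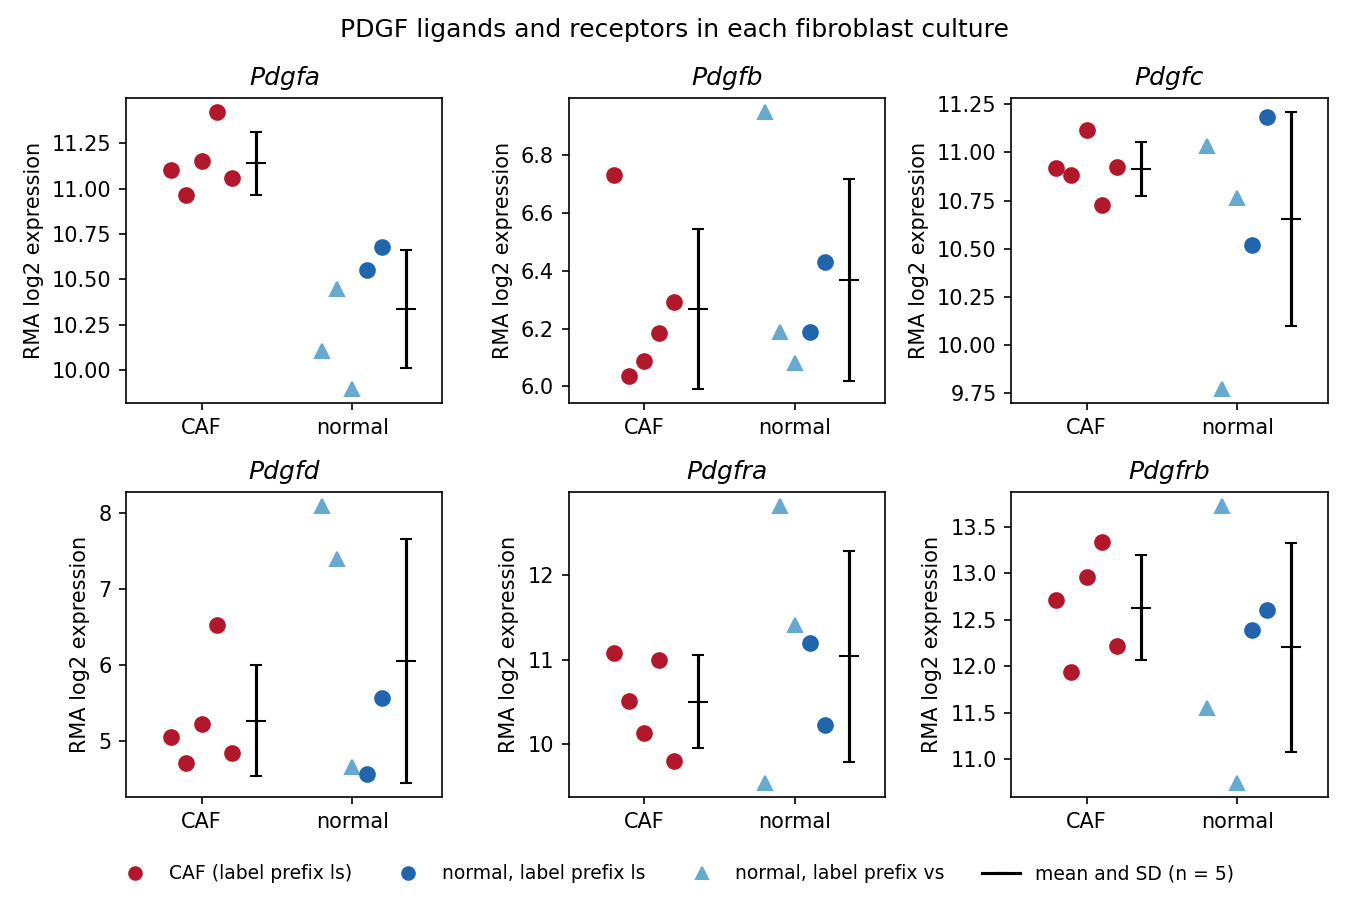
RMA log2 expression (vertical axes, each on its own scale) of the PDGF ligands and receptors in 5 CAF cultures (left, red) and 5 normal lung fibroblast cultures (right, blue, with triangles for label prefix vs), with the mean and SD of each group. For Pdgfa all CAF points lie above all normal points, and for the other genes the normal points span the CAF points or overlap them.

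Pdgfa, the ligand whose AA dimer acts mainly through PDGFR-alpha, was the member with the clearest difference. Its values (probe set 1418711_at) were 11.10, 10.96, 11.15, 11.42 and 11.06 in CAF cultures 1 to 5, against 10.11, 10.45, 9.90, 10.55 and 10.68 in normal cultures 1 to 5. The lowest CAF culture thus lay 0.29 above the highest normal culture. It averaged 11.14 ± 0.17 in the CAF group, against 10.34 ± 0.33 in the normal group (SD, n = 5 each), a difference of 0.80 ± 0.16 or 1.75-fold, with a 95% interval of 0.46 to 1.15. The limma adjusted p was 0.0529, just above the threshold, and the gene stood at rank 155 by p where 137 genes passed. An exact 2-sided permutation test of the means gave p = 0.00794, the smallest that 5 against 5 arrays allow. Every gene without overlap between the groups gets this p (7.16% of all genes), so it adds nothing to the separation. The second Pdgfa probe set (1449187_at) lay between 10.73 and 11.30 in CAF and between 9.72 and 10.62 in normal cultures, again without overlap, and differed by 0.69 ± 0.19.

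The size of the Pdgfa difference depended on which normal cultures it was set against. Normal cultures 4 and 5, which share the prefix ls with all CAF cultures, were the highest 2 of the normal group. Against them Pdgfa differed by 0.52 ± 0.13 (limma adjusted p = 0.109), and against the 3 normal cultures with prefix vs by 0.99 ± 0.15 (limma adjusted p = 0.0452). In a model that also held the prefix, the difference was 0.52 ± 0.16 (limma adjusted p = 0.306). No CAF culture has the prefix vs, so this is the same contrast with normal cultures 4 and 5, with another error, and no further check. Leaving out any 1 array gave differences of 0.69 to 0.89, with limma adjusted p-values of 0.0544 to 0.143.

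Pdgfc, a ligand secreted in a latent form with a CUB domain that proteases must remove, overlapped between the groups. It had 10.92, 10.88, 11.12, 10.73 and 10.92 in CAF cultures 1 to 5, against 11.03, 9.77, 10.76, 10.52 and 11.18 in normal cultures 1 to 5. The CAF values sat close together inside the range of the normal values, and normal culture 2 was the lowest of all 10. The difference was 0.26 ± 0.24 (limma adjusted p = 0.538), with a 95% interval of -0.27 to 0.79. Without normal culture 2 it was 0.04, and without normal culture 5 it was 0.39. The second probe set (1449351_s_at, whose suffix is given to probes shared by several transcripts) differed by 0.21 ± 0.24 and had its lowest value in the same normal culture, at 9.22.

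Pdgfb, the ligand that binds both receptors and is made chiefly by endothelium, platelets and macrophages, lay between 6.04 and 6.95 in all cultures. It had 6.73, 6.04, 6.09, 6.19 and 6.29 in CAF cultures 1 to 5, against 6.95, 6.19, 6.08, 6.19 and 6.43 in normal cultures 1 to 5. Culture 1 was the highest of its group in both groups, and the groups overlapped almost fully. The difference was -0.10 ± 0.19 (limma adjusted p = 0.779), with a 95% interval of -0.52 to 0.32, and its sign turned to 0.05 without normal culture 1. The dimmer probe set (1450413_at) differed by 0.03 ± 0.10. On that probe set CAF culture 1 (6.13) was again the highest of its group. Normal culture 1 (5.83) was not, and lay below normal cultures 2 (5.94) and 5 (5.96). The values of the arrays run from 3.98 to 15.5 over all probe sets, and RMA gives no detection call, so part of this signal may be background. The mean of 10 macrophage markers was also the highest of each group in culture 1, at 12.56 in CAF and 12.59 in normal cells, and its part in the Pdgfb values was not tested.

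Pdgfd, the PDGFR-beta ligand with a CUB domain, had low values in most cultures and much higher in a pair of normal ones. It had 5.06, 4.71, 5.22, 6.53 and 4.85 in CAF cultures 1 to 5, against 8.10, 7.39, 4.67, 4.57 and 5.57 in normal cultures 1 to 5. Normal cultures 1 and 2, both of prefix vs, stood above every other culture, and the other normal cultures lay close to the CAF values. The second probe set (1456532_at) showed the same order at the top, with 7.13 and 6.66 in normal cultures 1 and 2 and at most 5.72 in the CAF cultures, while the third (1446691_at) stayed between 4.93 and 5.11 on all arrays. The difference was -0.78 ± 0.71 (limma adjusted p = 0.540), with a 95% interval of -2.38 to 0.81. It was -1.44 against the normal cultures with prefix vs and turned to 0.20 against those with prefix ls. Leaving out any 1 array gave -1.15 to -0.27; it was -0.27 without normal culture 1 and -0.45 without normal culture 2.

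**Figure D2:**
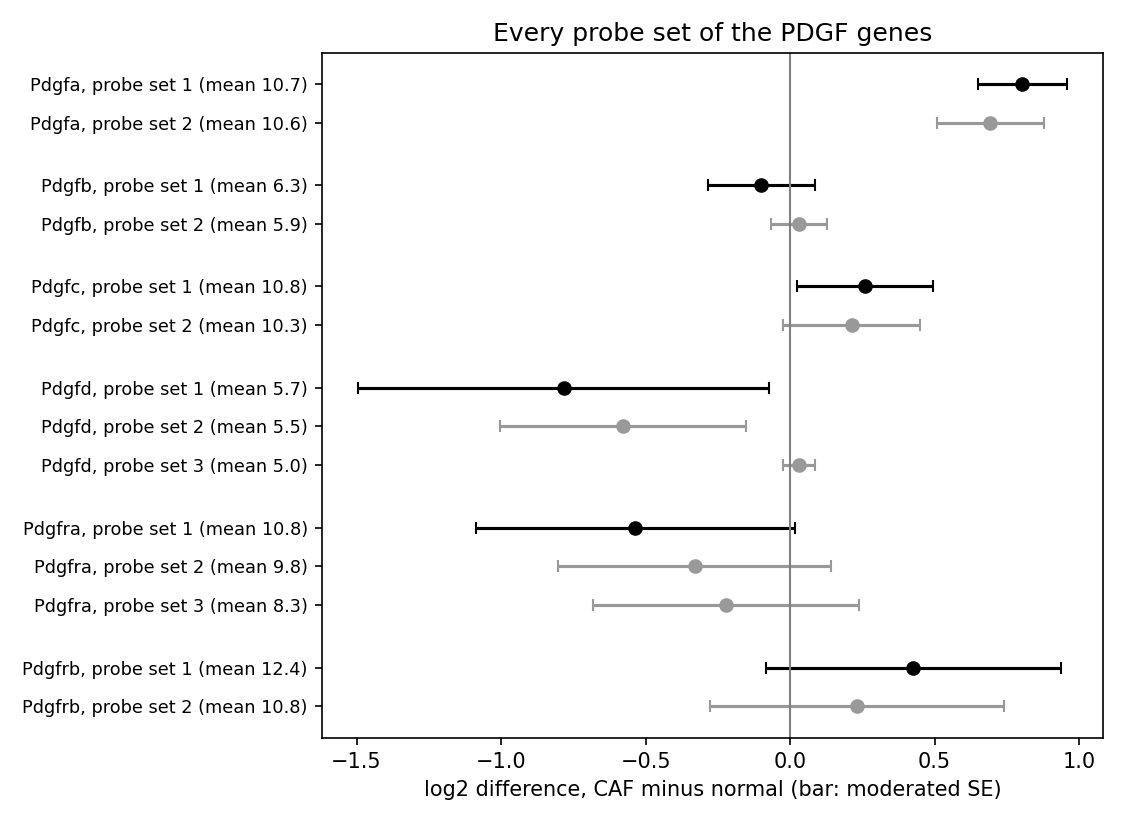
Log2 difference between CAF and normal fibroblasts (horizontal axis, with the moderated SE as bar) for all 14 probe sets of the PDGF genes, numbered by brightness within a gene, with the mean log2 level over all arrays in brackets. Black marks the probe set that represents the gene. Both Pdgfa probe sets lie to the right of 0 by several SE, the receptors lie within about 1 SE of 0, and the dimmest probe sets of Pdgfb and Pdgfd are on the other side of 0 from the brightest.

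Pdgfra, the receptor that marks many resident lung fibroblasts, varied far more among normal cultures than between the groups. It had 11.08, 10.52, 10.13, 11.00 and 9.81 in CAF cultures 1 to 5, against 9.54, 12.82, 11.41, 11.20 and 10.23 in normal cultures 1 to 5. The lowest and the highest of all 10 values were normal cultures 1 and 2, which are 9.73-fold apart, and the CAF cultures spanned 2.42-fold inside that range. The means were 10.51 ± 0.55 in CAF and 11.04 ± 1.25 in normal fibroblasts, a difference of -0.54 ± 0.55 (limma adjusted p = 0.592) with a 95% interval of -1.77 to 0.70. The dimmer probe sets (1421916_at and 1438946_at) differed by -0.33 ± 0.47 and -0.22 ± 0.46, and on both of them normal culture 2 was the highest and normal culture 1 the lowest of all arrays. Single cultures set the size: the difference was -0.91 without normal culture 1 and -0.09 without normal culture 2. Without CAF culture 5 it was -0.36.

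Pdgfrb, the receptor of pericytes and activated fibroblasts, was at 10.74 or more in every culture on its brightest probe set. It had 12.71, 11.93, 12.96, 13.34 and 12.21 in CAF cultures 1 to 5, against 11.55, 13.73, 10.74, 12.39 and 12.60 in normal cultures 1 to 5. Normal culture 2 was again the highest, normal culture 3 was the lowest, and all CAF values lay between them. The difference was 0.43 ± 0.51 (limma adjusted p = 0.648), with a 95% interval of -0.72 to 1.57, and the second probe set (1417148_at) differed by 0.23 ± 0.51. It was 0.81 without normal culture 2 and 0.06 without normal culture 3. Without CAF culture 4 it was 0.25, and without normal culture 1 it was 0.26. An interval this wide would hold a doubling in CAF as well as no difference.

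For all 6 PDGF genes the SD was larger among normal cultures, as it was for 71.1% of all genes. The SD of Pdgfc was 0.14 in CAF and 0.56 in normal cultures, that of Pdgfra 0.55 in CAF and 1.25 in normal cultures, and that of Pdgfrb 0.56 in CAF and 1.13 in normal cultures. The median SD over all genes was 0.14 in CAF and 0.21 in normal cultures. The normal group holds both label prefixes and the CAF group only 1. The lowest and highest normal values of Pdgfra (9.54 and 12.82) and of Pdgfrb (10.74 and 13.73) were all in cultures of prefix vs. Those of Pdgfc (9.77 and 11.18) were in cultures of prefix vs and ls. The part of the prefix in the larger normal SD was not tested.

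Marker lists of fibroblasts and of other cell types were read on the same arrays. Each list mean averages different probe sets, so it is compared between cultures and not between lists. The mean of 10 fibroblast markers, such as Col1a2, Vim and Fn1, ran from 13.10 to 14.41 in CAF and from 13.12 to 14.79 in normal cultures. Differences were negative for 7 of these 10 and positive for 3, with a median of -0.22. The mean of 10 macrophage markers ran from 10.05 to 12.56 in CAF and from 9.21 to 12.59 in normal cultures. Of these 10, 9 had a positive difference, with a median over the list of 0.41. The 6 mesothelial markers, among them Upk1b, Upk3b and Wt1, had means of 7.24 to 10.07 in CAF and 5.93 to 11.63 in normal cultures, and all 6 had a negative difference, with a median of -0.77. Markers of pericytes and vascular smooth muscle lay between 8.91 and 9.57 in CAF and between 8.58 and 9.32 in normal cultures. Those of megakaryocytes and platelets lay between 8.49 and 9.20 in CAF and between 8.36 and 9.40 in normal cultures. The 10 epithelial markers had means of 6.39 to 7.40 in CAF and 6.65 to 7.74 in normal cultures. Over all arrays the brightest of them, Krt18, averaged 9.21 and the lowest, Cdh1, 4.95, near the low end of the scale. Krt18 varied widely, from 5.67 in normal culture 2 to 11.35 in normal culture 3. Of the 10 epithelial markers, 9 had a negative and 1 a positive difference, with a median of -0.36. The 10 endothelial markers had means of 6.27 to 6.34 in CAF and 6.40 to 6.49 in normal cultures. Of these 7 lists, only the endothelial means did not overlap between the groups. Of the 10 endothelial markers, 9 had a mean under that of the median gene (8.11), so part of their signal may be background. Their differences were negative for 7 and positive for 3, with a median of -0.15. After quantile normalisation this median was -0.07, with 6 negative and 4 positive. Limma called 0 of the 62 genes in these lists (background 0.753%), and 13 had an unadjusted p under 0.05 (background 22.3%).

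Receptor levels and these markers lined up in some cultures and not in others. Normal culture 2, with the highest Pdgfra and Pdgfrb, had the highest fibroblast marker mean (14.79) and the lowest macrophage (9.21) and mesothelial (5.93) means of all 10 cultures. Normal culture 1, with the lowest Pdgfra, had the highest macrophage (12.59) and mesothelial (11.63) means, but its fibroblast mean (14.08) was the next highest of the normal group. CAF culture 1, with the highest Pdgfra of the CAF group (11.08), had the highest fibroblast mean of that group (14.41). It also had the highest macrophage mean of that group (12.56), the reverse of what normal cultures 1 and 2 showed. By fibroblast mean the CAF cultures ranked 1, 4, 2, 3 and 5 from the top, the same order as by Pdgfra. In the normal group the 2 orders differed. Among CAF cultures, culture 4 had the highest Pdgfrb (13.34) and the lowest mesothelial mean (7.24), and culture 2 the lowest Pdgfrb (11.93) and the highest mesothelial mean (10.07). In the normal group, culture 3 had the lowest Pdgfrb (10.74) and the lowest fibroblast mean (13.12). Its mesothelial mean (10.72) lay below those of normal cultures 1 and 5. The part of these markers in the receptor values was not tested, and in bulk RNA fewer cells of a type cannot be told apart from less RNA per cell.

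**Figure D3:**
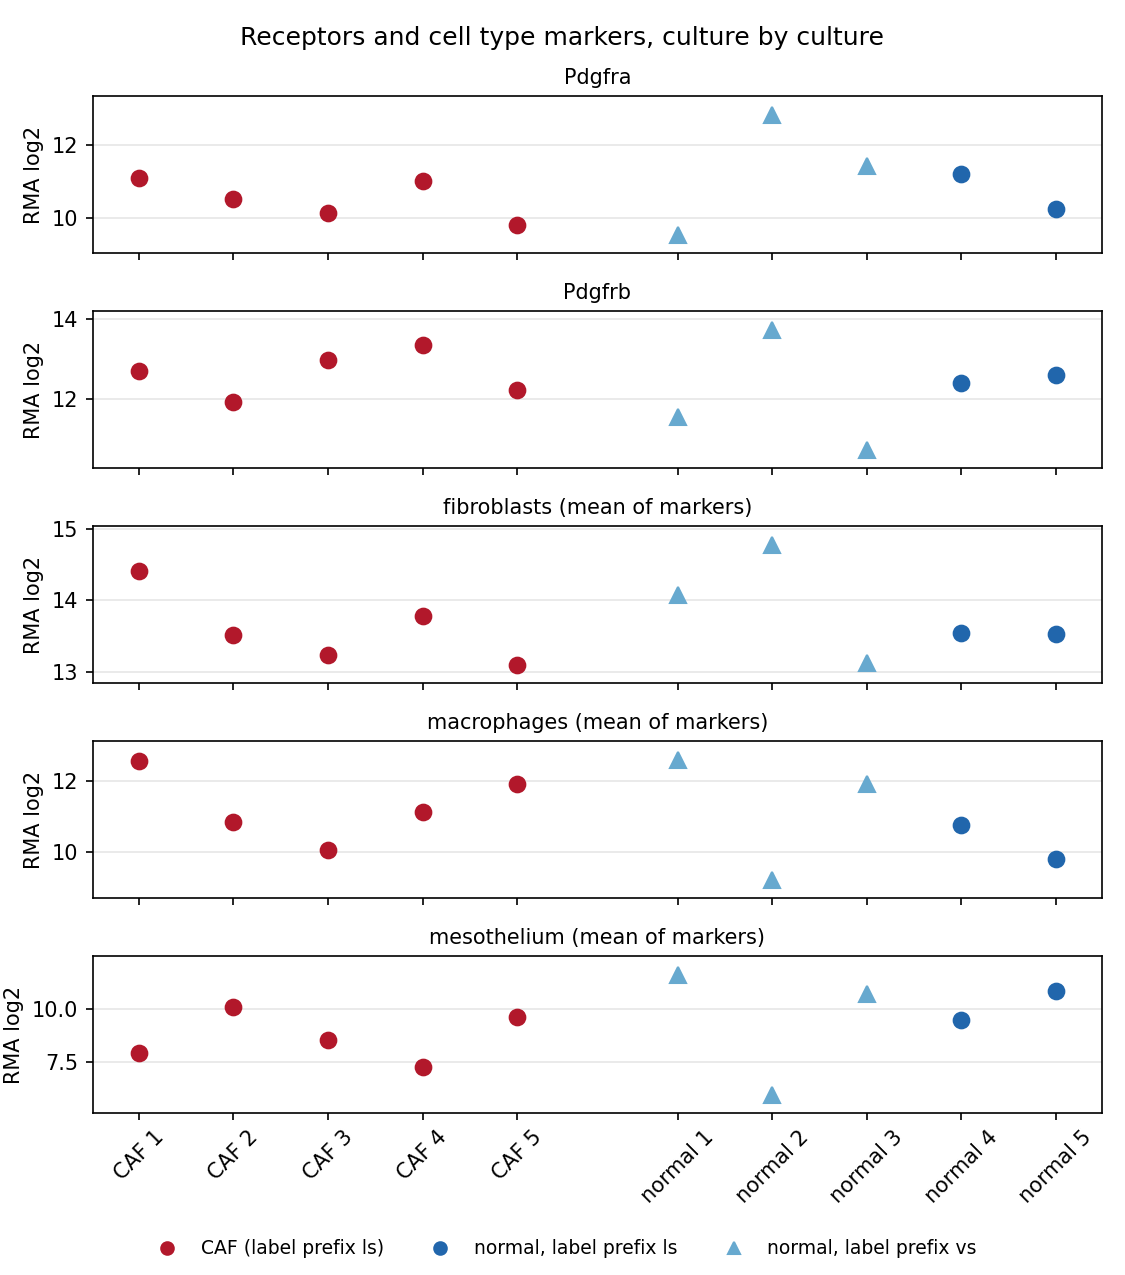
RMA log2 levels (vertical axes) of Pdgfra, Pdgfrb and the mean of the fibroblast, macrophage and mesothelial marker lists in each culture, with CAF cultures 1 to 5 on the left and normal cultures 1 to 5 on the right. Normal culture 2 is at the top for both receptors and the fibroblast markers and at the bottom for macrophage and mesothelial markers.

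For each PDGF gene, the genes of most similar pattern were taken by Pearson correlation over the 10 arrays among 11010 named genes with a mean of at least 7. The correlations describe these arrays and, with so many genes searched, high values are always found. Pdgfa was most like Mfap3l (r of 0.98), Fbxo9, an F-box protein of ubiquitin ligases (0.98), and Trak2, an adaptor of mitochondrial transport (0.97). After group means were subtracted these stood at 0.90, 0.90 and 0.87. Mfap3l, Fbxo9 and Trak2 differed by 2.09 ± 0.38, 0.55 ± 0.10 and 0.62 ± 0.13 between CAF and normal cultures. Their limma adjusted p-values were 0.0483, 0.0483 and 0.0540, where 0.753% of all genes passed. They were picked for likeness to Pdgfa with its step between the groups included. Their differences thus follow from the choice and are no separate result. Pdgfrb was most like Ackr3, a scavenging receptor for CXCL12 (0.97), Prrx2, a mesenchymal homeobox factor (0.96), and Ccn5, a matricellular protein (0.95). Pdgfra was most like Pde7a, a cyclic AMP phosphodiesterase (0.93), Ripor3 (0.90) and Zfp383 (0.90). Pdgfd was most like Zc3h7b (0.95), Islr, a surface protein of mesenchymal cells (0.94), and Nckap5l (0.94). Pdgfc was most like Sh3gl3, an endophilin (0.94), Atp1b3, a sodium pump subunit (0.93), and C1galt1c1, a chaperone of O-glycosylation (0.93). For Pdgfb they were Eps15, of endocytosis (0.94), Ltc4s, which makes leukotriene C4 in myeloid cells (0.92), and Arsg, a lysosomal sulfatase (0.91).

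The genes that process, bind or carry the PDGF signal were read from 5 lists, in which limma called 0 of 58 genes (background 0.753%). Of 7 proteases that process the ligands, 6 had positive and 1 a negative difference, with a median of 0.13 and 2 at an unadjusted p under 0.05, both positive, against 10.5% of all genes higher at that p. After quantile normalisation of the same values, 3 were positive and 4 negative, with a median of -0.01. Pcsk5, a proprotein convertase, had 10.83, 8.22, 10.04, 10.64 and 10.52 in CAF cultures 1 to 5, against 8.00, 9.96, 6.47, 7.28 and 6.84 in normal cultures 1 to 5. CAF culture 2 and normal culture 2 crossed the pattern that the others showed. Its difference was 2.34 ± 0.71 (limma adjusted p = 0.109), while its 4 other probe sets ranged from -0.15 to 2.01. Plau, the urokinase that activates PDGF-DD, differed by 0.84 ± 0.31 (limma adjusted p = 0.160), and Pcsk6, another convertase, by -0.53 ± 0.26 (limma adjusted p = 0.262). Plat, the tissue plasminogen activator that frees PDGF-CC, differed by 0.01 ± 0.34 and Furin, which cleaves the PDGF-A and PDGF-B precursors, by 0.09 ± 0.13, and both turned negative after quantile normalisation. These last 2 were chosen after their values were seen, for their known roles.

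PDGF-binding proteins and co-receptors showed 5 positive and 2 negative differences among 7, with a median of 0.19 and 1 at an unadjusted p under 0.05 (background 22.3%). That gene was A2m, a plasma protein that traps PDGF-BB, which differed by -0.31 ± 0.12 (limma adjusted p = 0.182). A2m was dim, at 6.08 in CAF and 6.39 in normal cultures against 8.11 for the median gene, so part of its signal may be background. Thbs1, thrombospondin, differed by 0.31 ± 0.18 and Itgb3, the beta3 integrin, by 0.72 ± 0.54.

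Receptor-bound adaptors and enzymes had mostly positive differences. Of 21 measured, 16 differences were positive and 5 negative (15 and 6 after quantile normalisation), with a median of 0.24, and 8 had an unadjusted p under 0.05, 7 of them positive (background 10.5%) and 1 negative (background 11.8%). The list mean ran from 10.37 to 10.51 in CAF and from 9.92 to 10.39 in normal cultures, with overlap. Ptpn11, the phosphatase SHP2 that docks on both receptors and carries signal to RAS, had 12.46, 12.45, 12.89, 12.97 and 12.66 in CAF cultures 1 to 5, against 12.10, 12.44, 11.72, 12.09 and 12.42 in normal cultures 1 to 5. The lowest CAF and the highest normal values nearly touched. It differed by 0.53 ± 0.16 (limma adjusted p = 0.108), and its other 2 probe sets by 0.02 and 0.39. Fyn, a SRC-family kinase, differed by 0.86 ± 0.28 (limma adjusted p = 0.129), with its other probe set at 1.10, and Nck1, an adaptor, by 0.41 ± 0.13 (limma adjusted p = 0.115), with its others at -0.16 and 0.06. Stat5b had the smallest p on the negative side, at -0.28 ± 0.09 (limma adjusted p = 0.134).

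Restraints on the receptors had 4 positive and 3 negative differences among 7 (3 and 4 after quantile normalisation), with a median of 0.13 and 2 at an unadjusted p under 0.05, both positive (background 10.5%). Cbl, the ubiquitin ligase that sends bound receptors to lysosomes, had 10.55, 10.49, 10.39, 10.53 and 10.54 in CAF cultures 1 to 5, against 10.40, 9.92, 9.91, 10.02 and 10.23 in normal cultures 1 to 5. CAF cultures were nearly level and only normal culture 1 reached them. Its difference was 0.40 ± 0.10 (limma adjusted p = 0.0810), and the other 2 probe sets differed by 0.35 and 0.57. Its relative Cblb differed by 0.31 ± 0.13 (limma adjusted p = 0.190). Slc9a3r1, the scaffold NHERF1 that binds PDGFR-beta, differed by -0.89 ± 0.47 (limma adjusted p = 0.291), with its other probe sets at -1.07 and -0.89.

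Genes that PDGF is known to induce in cultured fibroblasts had the largest median of these lists. All 16 measured had a positive difference (15 of 16 after quantile normalisation), with a median of 0.74 (median of all genes -0.04). Limma called 0 of these 16 genes (background 0.753%), and 7 had an unadjusted p under 0.05 (background 10.5% higher). Groups did not overlap for 4 of them, Odc1, Ccl2, Fosl1 and Ptgs2 (background 2.97%; Fosl1 and Ptgs2 were named after their values were seen). Serum, interleukin-1 and other signals induce many of the same genes. Odc1, the first enzyme of polyamine synthesis, had 13.66, 13.73, 14.48, 13.94 and 14.29 in CAF cultures 1 to 5, against 12.71, 13.06, 13.33, 13.64 and 13.21 in normal cultures 1 to 5. The highest normal culture nearly reached the lowest CAF culture. It differed by 0.83 ± 0.21 (limma adjusted p = 0.0765), and its other probe sets by 0.52 and 1.61. Ccl2 and Cxcl1, first cloned in mouse as the PDGF-induced genes JE and KC, differed by 1.61 ± 0.41 and 2.77 ± 0.79 (limma adjusted p = 0.0829 and 0.0963). The list mean was 11.39 to 11.77 in CAF and 9.88 to 11.46 in normal cultures, where normal culture 4 lay above CAF cultures 1 and 3. It differed by 0.40 against the normal cultures with prefix ls and by 1.16 against those with prefix vs. Macrophage markers leaned the same way, with 9 of 10 positive and their mean differing by 1.02 against the prefix ls and 0.06 against the prefix vs cultures, and mesothelial markers the other way, with 0 of 6 positive. Their part in this list was not tested.

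**Figure D4:**
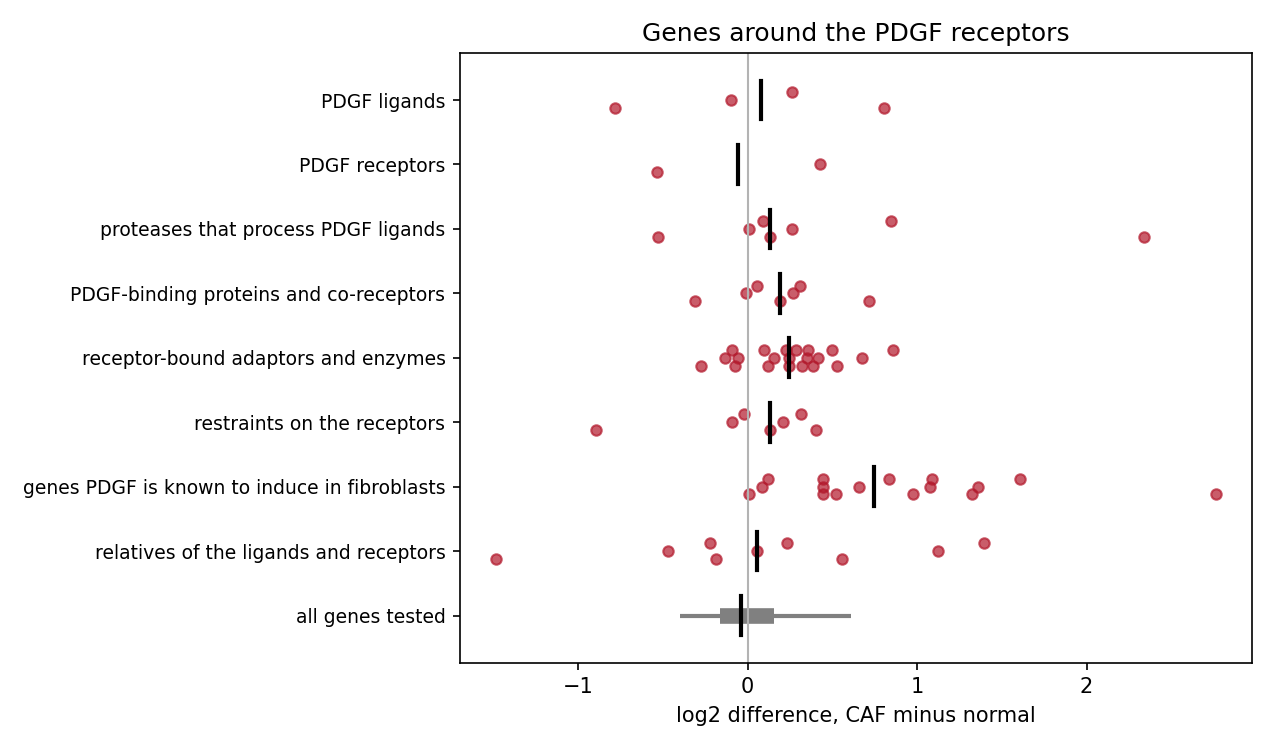
Log2 difference between CAF and normal fibroblasts (horizontal axis) for each gene of the PDGF ligands, the receptors and the lists around them, 1 point per gene, with a black bar at the list median. The grey bar covers the 25th to 75th and the grey line the 5th to 95th percentile of all genes tested, from -0.40 to 0.61 for the line. All points of the PDGF-induced genes lie to the right of 0 (15 of 16 after quantile normalisation), and the other lists spread to both sides.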

How the data were processed

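Total RNA (6 ug) was labelled as biotinylated cRNA and hybridised to Affymetrix Mouse430_2 arrays. The authors deposited a table of log2 values with a column for each array, made with RMA in Affymetrix Expression Console per the submitters' processing notes, with limma among the tools and no versions given in the sources used here. The deposited values ran from 3.98 to 15.5. RMA quantile-normalises and gives no detection call, so differences are relative and low values may be background. The spread of the deposited values still differed by group. Upper quartiles were 9.21 to 9.29 on CAF arrays and 9.05 to 9.12 on normal arrays. Medians were 6.73 to 6.74 on CAF arrays and 6.76 to 6.79 on normal arrays. High values thus leaned up and low values down in CAF. Quantile normalisation of the same values, given beside several lists, makes the arrays alike in this. Precision is limited by the number of arrays.

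After 64 control probe sets were left out, 34945 of 45037 probe sets had 1 gene symbol, 932 several and 9160 none. Symbols were updated to the RefSeq table of GRCm38.p6 through Entrez numbers (34741 matched). The brightest single-symbol probe set represented each gene. Limma 3.58.1 in R 4.3.3 was fitted with group as the only term over all genes, after a test on simulated data. Genes were picked for naming by rule, starting with the 6 members. From each pathway list came the genes called, the 3 with the smallest p and the 1 with the smallest p in the other direction. The 3 brightest markers of each cell type list and the 3 most similar patterns of each member were added. Cdh1 was named outside this rule, as the lowest epithelial marker. Members and lists were chosen with earlier results of these data known. Some list genes were not analysed here. Alternatives were probe set choice, scaling, filters, priors, weights, label prefix, replicate number, left-out arrays and exact tests.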

Additional observations from a re-analysis of the deposited data

Results flagged for a closer look

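Among 66 groups of 5 values looked at (the PDGF probe sets and the named pathway genes, in each group), 2 held an array far from the others of its group, where chance gives about 1 in 20. For Pdgfd, CAF culture 4 stood at 6.53, and the other CAF cultures lay between 4.71 and 5.22. For Vegfa, a relative of the PDGF ligands that acts on endothelium, CAF culture 2 stood at 11.53, below the other CAF cultures at 12.15 to 12.31.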

How the results depend on the processing

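Limma called 137 genes, 102 higher and 35 lower. The count was 429 with probe sets tested one by one, 75 without genes of mean under 6, 46 with a trended robust prior, 1597 with array weights, 1 against the normal cultures with prefix ls, and 0 with the prefix as a term (2649 at an unadjusted p under 0.05), by exact Wilcoxon test (3184) or with the replicate block (3017). Without single arrays it was 0 to 166. Quantile normalisation gave 43 higher and 49 lower. Pdgfa stayed positive in all 22 alternatives (0.52 to 0.99). It passed with probe sets tested one by one (0.80, limma adjusted p = 0.0468), with array weights (0.69, 0.0320) and against the prefix vs cultures (0.99, 0.0452). The exact permutation test, on Pdgfa alone (0.80), gave an unadjusted p of 0.00794, as it does for any gene without overlap between the groups. The limma adjusted p of Pdgfa ran from 0.0320 to 0.306. The other members passed in none. Pdgfb turned to 0.031 on its dimmer probe set and to 0.046 without normal replicate 1 (-0.22 to 0.05 without single arrays). Pdgfd turned to 0.030 on its dimmest probe set. It turned to 0.20 with the prefix as a term or against the prefix ls cultures, which are the same contrast. The cause of these turns was not tested. Same-numbered arrays deviated together in 1 of 5 numbers (correlations of deviations -0.53 to 0.34), so the numbers were not taken as pairs; with the replicate block Pdgfa had a limma adjusted p of 0.206. Pdgfd, under the filter, gave no value. Dim signal limits Pdgfb and Pdgfd.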

Other observations

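Relatives of the PDGF ligands and receptors had 5 positive and 4 negative differences among 9 genes, with a median of 0.06 (4 and 5, with a median of -0.08, after quantile normalisation). Limma called 0 of them (0.753% of all genes), and 3 had an unadjusted p under 0.05 (22.3% of all genes). Vegfa, which shares the cystine-knot fold of the PDGF ligands, differed by 1.13 ± 0.43 (limma adjusted p = 0.172) and by 1.33 on its other probe set. Kit and Flt3, receptors of the same class as the PDGF receptors and typical of blood cell precursors, differed by -0.22 ± 0.07 and -0.19 ± 0.06 (limma adjusted p = 0.132 and 0.127), without overlap between the groups (as for 4.19% of all genes, lower in CAF). Both were dim, under the median gene of 8.11. Kit averaged 5.93 in CAF and 6.15 in normal cultures, and Flt3 7.07 and 7.26, so part of this signal may be background.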
